A study of Mus musculus with 6 samples.

Results

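The genes of the G2 phase and of mitosis examined here are the kinases and cyclins that start cell division and the proteins that build the spindle, hold it to the chromosomes and separate the daughter cells. They were chosen by gene symbol, from a list of 50 symbols, with earlier results of these data known. Of these, 49 have a row among the 59484 features of the deposited table, while 1 listed gene was not analysed here. All 49 had a mean of at least 10 normalized counts over the libraries, the lowest level at which a feature was tested, and so they are 49 of the 18970 features tested. Their means ran from 83.7 to 5455 normalized counts.

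PolyA+ RNA was sequenced from the cerebral cortex of mouse embryos on embryonic day 18.5. The libraries are 3 from wild-type mice and 3 from mice labelled as knocked out for Sam68 and Slm2 (dKO), the paralogous STAR family RNA-binding proteins that the genes *Khdrbs1* and *Khdrbs3* encode. The study kept its wild-type and knockout mice as C57BL/6. The labels state neither litter, sex nor pooling, and *P*-values here measure the spread between these libraries.

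A dividing cell passes from G2 into mitosis when CDK1 and its cyclins become active, and it leaves mitosis when the anaphase-promoting complex (APC/C), a ubiquitin ligase, marks cyclins and securin for destruction. Most mRNAs of this program accumulate only from late S phase to mitosis, so that in tissue they mark cycling cells. In the embryonic cortex these include radial glia, which divide at the ventricular surface. They also include intermediate progenitors, which divide in the subventricular zone and give rise to projection neurons. Several spindle pole genes of the list are known as genes of inherited microcephaly.

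The targeted genes follow their labels in every library. *Khdrbs1* had 8231, 8436 and 7974 normalized counts in the wild-type libraries and 114, 197 and 146 in the dKO libraries, given in the order of replicates 1 to 3 here and below. *Khdrbs3* had 13543, 15215 and 12764 normalized counts in the wild-type libraries and 7059.5, 6349.7 and 6547 in the dKO libraries, so that its reads fell only in part at the level of the whole gene. In both genes every dKO library lay below every wild-type library.

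As a set, the mitotic genes lay slightly but broadly higher in dKO cortex. Of the 49 members, 46 had a log2 fold change above 0, where 50.6% of all features tested did, and the median was 0.30 against 0.00 over all features, or 1.23-fold. The log2 fold changes ran from -0.20 for *Kif18b* to 0.53 for *Ccnb2* and are taken on log2(normalized count + 1). At an unadjusted *P*-value under 0.05 from limma, 21 members were higher in dKO cortex, or 42.9%, where 4.92% of all features were, and 0 were lower, where 6.58% were. With the trend and robust options of limma off, 13 members were higher, 12 of them among the 21, where 3.52% of all features were. By limma no member passed the threshold of 0.05 on the adjusted *P*-value, which 0.1002% of all features passed, and the lowest adjusted value among the members was 0.242 for *Cdc20*. The other tools gave 0 members with edgeR, with 22 higher at its unadjusted *P*-value under 0.05 where 5.28% of all features were, and 1 with DESeq2, again *Cdc20* (adjusted p = 0.0403), where 0.316% of all features were called higher by DESeq2. In 21 members every dKO library lay above every wild-type library, where 7.89% of all features do so, and in 0 members every dKO library lay below, where 8.48% do. Both of these counts cover whole cortex, in which fewer or more cycling cells and less or more mRNA per cycling cell cannot be told apart.

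The members were not spread evenly across the libraries. The plot of members by library shows that wild-type replicate 1 was lowest and dKO replicate 1 highest for the most genes. Wild-type replicate 1 held the lowest of the 6 values in 28 members and dKO replicate 1 the highest in 25, while dKO replicate 3 was highest in 16. The median deviation of the members from their own mean on the log2 scale was -0.25, 0.00 and -0.15 in the wild-type libraries and 0.25, 0.03 and 0.13 in the dKO libraries. Wild-type replicate 2 and dKO replicate 2 therefore lay next to each other in the middle. Summed over the members, the levels were 31795, 37386 and 34570.1 in the wild-type libraries and 45326, 38957 and 41615 in the dKO libraries, which gave 34584 ± 2796 in wild-type and 41966 ± 3199 normalized counts in dKO cortex (SD, n = 3 each). The sums did not overlap, and their gap between wild-type replicate 2 and dKO replicate 2 was small beside the spread within either genotype. The members took up 0.0896%, 0.106% and 0.0994% of the reads of the wild-type libraries and 0.122%, 0.107% and 0.113% of those of the dKO libraries.

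**Figure D1:**
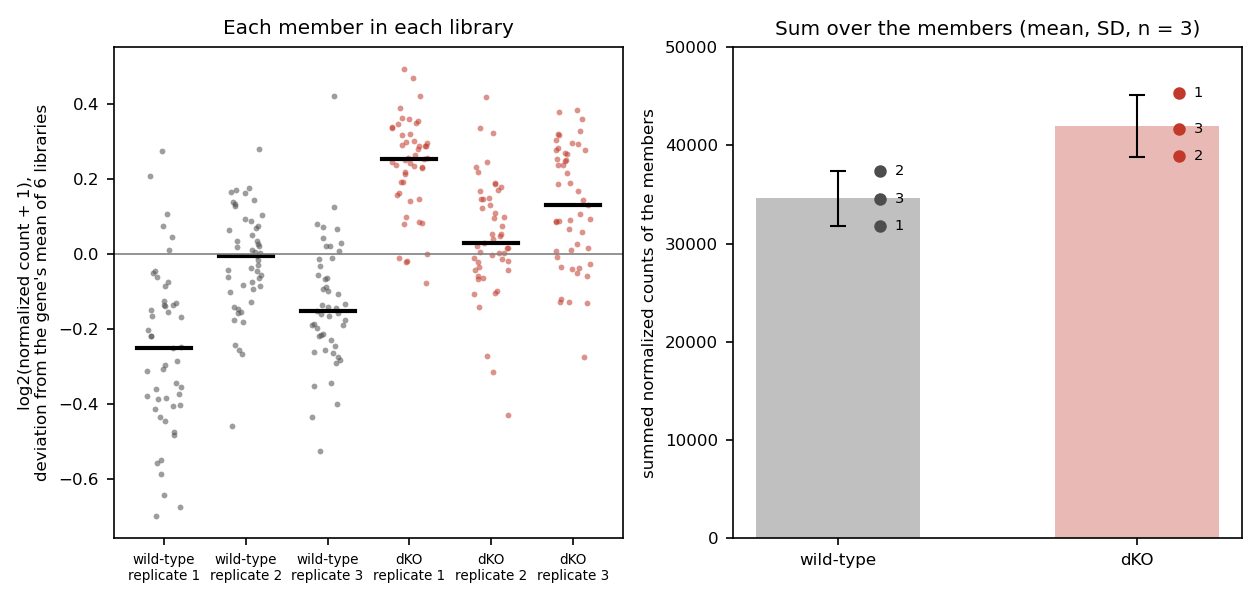
Left, deviation of log2(normalized count + 1) of each of the 49 members from its mean over the 6 libraries, with the median of each library as a black bar. Right, summed normalized counts of the members per genotype as bars from 0 (mean and SD, n = 3), with each library as a point labelled by its replicate number; wild-type replicate 2 lies nearest to the dKO libraries.

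The same libraries also stood apart in another measure. Across the 13978 features with an annotated exon length, the Spearman correlation of a library's deviation with exon length was 0.28 in wild-type replicate 1 and 0.33 in dKO replicate 1, and between -0.24 and -0.13 in the others, as a description across genes that are not independent. With the length trend of each library removed, an alternative chosen after seeing the data, the median of the members was 0.30 and 24 members were higher at an unadjusted *P*-value under 0.05, where 6.45% of the 13978 features were. Leaving out wild-type replicate 1 lowered the median to 0.23 and the count of 21 to 12 members, 11 of them among the 21, where 3.74% of all features were higher. Leaving out dKO replicate 1 gave a median of 0.24 and 12 members, 11 among the 21, where 6.15% of all features were. With both left out, also chosen after seeing the data, the median was 0.22, 40 members lay above 0 and 7 were higher at an unadjusted *P*-value under 0.05, all 7 of them among the 21, where 5.30% of all features were. Those are *Cdk1*, *Ccna2*, *Cdc20*, *Aspm*, *Kif23*, *Racgap1* and *Smc2*. In 8 members the unadjusted *P*-value stayed under 0.05 whichever library was left out, namely *Ccna2*, *Aurkb*, *Cdc20*, *Ube2c*, *Kif23*, *Ect2*, *Racgap1* and *Smc2*, named after their values were seen. The share of all features that stayed under 0.05 in this way was not computed, so the 8 have no background beside them. Beside the median of each group of genes below, parentheses give its lowest and highest value when 1 library is left out. With all libraries, the counts of higher genes in each group stand against 4.92% of all features tested. That share was 3.74% without wild-type replicate 1, 6.15% without dKO replicate 1 and 5.30% without both. It was 3.42% without wild-type replicate 3, 5.79% without wild-type replicate 2 and 2.35% without dKO replicate 3. With the trend and robust options of limma off it was 3.52%.

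Entry into mitosis is driven by CDK1 with cyclin A2 and the B cyclins, which the CDC25 phosphatases switch on and whose genes FOXM1 transcribes. All 7 genes of this step had a log2 fold change above 0, with a median of 0.29 (0.18 without wild-type replicate 1, 0.42 without wild-type replicate 2), and 3 were higher at an unadjusted *P*-value under 0.05. That count was 1 without wild-type replicate 1, 3 without dKO replicate 1 and 2 without both, when the median was 0.22, and 1 without dKO replicate 3. With the trend and robust options of limma off, 1 was higher. *Ccnb2*, a B-type cyclin (GSMG0040970, chromosome 9 from 70407689 to 70421554), had 219, 383 and 293 normalized counts in the wild-type libraries and 427, 387 and 449 in the dKO libraries. Wild-type replicate 1 lay far below the rest and wild-type replicate 2 came within a few counts of dKO replicate 2, so that the genotypes did not overlap but almost met, with a limma log2 fold change of 0.53 ± 0.19 (standard error) and an adjusted p of 0.369. *Ccna2*, the cyclin that acts in S phase and G2 (GSMG0025321, chromosome 3 from 36564865 to 36573038), had 986, 1236 and 1178 normalized counts in the wild-type libraries and 1543, 1425 and 1547 in the dKO libraries. All dKO libraries were clearly above all wild-type libraries, with a limma log2 fold change of 0.41 ± 0.10 (standard error) and an adjusted p of 0.263. *Cdk1*, the kinase itself (GSMG0004222, chromosome 10 from 69336635 to 69352939), had 629.6, 979.6 and 1013 normalized counts in the wild-type libraries and 1042, 1166 and 1185 in the dKO libraries. Only wild-type replicate 1 was far from the other libraries, and the genotypes were separate by a narrow gap, with a limma log2 fold change of 0.40 ± 0.17 (standard error) and an adjusted p of 0.402.

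*Ccnb1*, the other main mitotic cyclin, had 442, 540.3 and 429 normalized counts in the wild-type libraries and 574, 491 and 641 in the dKO libraries. Wild-type replicate 2 exceeded dKO replicate 2, so the genotypes overlapped, and *Ccnb1* gave a limma log2 fold change of 0.27 ± 0.14 (standard error) and an adjusted p of 0.483. The phosphatase genes *Cdc25b* and *Cdc25c* and the transcription factor gene *Foxm1* also overlapped, with log2 fold changes of 0.05, 0.29 and 0.11, and all of them fell to 0 or just below it without both libraries numbered 1. *Cdc25b* also turned to -0.08 without dKO replicate 3, and *Foxm1* to -0.03 without wild-type replicate 1. *Foxm1* had 259 normalized counts in wild-type replicate 1 and between 331 and 368 in the other 5 libraries. The factor's own mRNA was therefore lower in a lone wild-type library and level elsewhere.

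The kinases of mitosis, the spindle checkpoint and the APC/C set when chromosomes separate. All 7 of these genes that were tested had a log2 fold change above 0, with a median of 0.34 (0.24 without wild-type replicate 1, 0.48 without wild-type replicate 2), and 4 were higher at an unadjusted *P*-value under 0.05. The count was 3 without wild-type replicate 1, 3 without dKO replicate 1 and 1 without both, when the median was 0.16. *Cdc20*, the activator of the APC/C that the checkpoint holds back (GSMG0028269, chromosome 4 from 118432901 to 118437350), had 894, 1134 and 1004 normalized counts in the wild-type libraries and 1370.3, 1321 and 1376 in the dKO libraries. The dKO libraries were nearly equal to each other and all well above the wild-type libraries, which were more spread, with a limma log2 fold change of 0.43 ± 0.10 (standard error) and an adjusted p of 0.242 and a level 34.7% higher in dKO cortex. *Ube2c*, the ubiquitin-conjugating enzyme that works with the APC/C (GSMG0022154, chromosome 2 from 164769896 to 164778820), had 1205, 1788 and 1477 normalized counts in the wild-type libraries and 1959, 1833 and 1983 in the dKO libraries. Its dKO libraries were again close together and wild-type replicate 2 lay just under them, with a limma log2 fold change of 0.39 ± 0.13 (standard error) and an adjusted p of 0.357. *Aurkb*, the kinase of the chromosomal passenger complex (GSMG0005390, chromosome 11 from 69045637 to 69051662), had 485, 606 and 565 normalized counts in the wild-type libraries and 769.6, 635 and 796 in the dKO libraries. The genotypes were separate, with dKO replicate 2 closest to wild-type, and *Aurkb* gave a limma log2 fold change of 0.41 ± 0.13 (standard error) and an adjusted p of 0.337.

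*Ttk*, the kinase that starts the checkpoint signal at unattached kinetochores, had 242, 266 and 286 normalized counts in the wild-type libraries and 389, 303 and 315 in the dKO libraries. The highest value was that of dKO replicate 1 and the genotypes did not overlap, with a limma log2 fold change of 0.34 ± 0.15 (standard error) and an adjusted p of 0.422. The checkpoint genes *Bub1* and *Bub1b* and the spindle pole kinase gene *Aurka* overlapped between the genotypes, with log2 fold changes between 0.18 and 0.29. Without both libraries numbered 1, *Bub1* and *Bub1b* turned to -0.09 and -0.01. *Aurka* had 265, 484 and 363 normalized counts in the wild-type libraries and 470.1, 455 and 401 in the dKO libraries. Wild-type replicate 2 was its highest library of all and wild-type replicate 1 its lowest.

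Kinetochores are built on centromeric chromatin and hold spindle microtubules through the NDC80 complex, while the passenger complex corrects wrong attachments. All 8 genes of this group had a log2 fold change above 0, with a median of 0.29 (0.18 without wild-type replicate 1, 0.38 without wild-type replicate 2), and 1 was higher at an unadjusted *P*-value under 0.05. The count was 0 without wild-type replicate 1, 1 without dKO replicate 1 and 0 without both, when the median was 0.17. It was 0 without wild-type replicate 3 and 3 without wild-type replicate 2. Other settings moved it too, to 0 without the trend and robust options, 2 with edgeR, DESeq2, quantile normalization, TMM factors or a minimum mean of 1, 3 with the length trend removed and 4 with the replicate block. In the settings that gave 2, between 4.18% and 5.28% of all features tested were higher. With the length trend removed 6.45% of the features tested were, and with the replicate block 6.37%. *Cenpf*, a large protein of the outer kinetochore (GSMG0002622, chromosome 1 from 189640606 to 189688088), had 315, 316 and 295 normalized counts in the wild-type libraries and 446, 437 and 319 in the dKO libraries. The wild-type libraries were tightly grouped, and dKO replicate 3 lay only just above them, with a limma log2 fold change of 0.36 ± 0.15 (standard error) and an adjusted p of 0.407. *Spc25*, a subunit of the NDC80 complex, had 299.6, 536 and 458 normalized counts in the wild-type libraries and 483, 615 and 608 in the dKO libraries. The dKO values straddled that of wild-type replicate 2, so the genotypes overlapped although *Spc25* had the largest log2 fold change of the group, with a limma log2 fold change of 0.43 ± 0.20 (standard error) and an adjusted p of 0.446. *Incenp*, the scaffold of the passenger complex (GSMG0020079, chromosome 19 from 9872297 to 9899533), had 1695, 1607 and 1646 normalized counts in the wild-type libraries and 2006, 1753 and 1864 in the dKO libraries. All dKO libraries were above all wild-type libraries by a small margin, with a limma log2 fold change of 0.18 ± 0.08 (standard error) and an adjusted p of 0.444.

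The remaining genes were *Cenpa*, the histone variant of centromeres, *Birc5*, the survivin subunit of the passenger complex, *Ndc80*, *Nuf2* and the kinesin gene *Cenpe*. They overlapped between the genotypes, with log2 fold changes from 0.10 for *Cenpe* to 0.30 for *Birc5*. *Nuf2* and *Ndc80* encode partners in the same complex and gave 0.12 and 0.30, a difference that was not tested. The direction of *Nuf2* is not settled, with -0.06 without wild-type replicate 1 and -0.17 without both libraries numbered 1, nor is that of *Cenpe*, with -0.07 without wild-type replicate 3.

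The spindle genes include kinesins that move along microtubules or shorten them, and proteins of the spindle pole. Of these 13 genes, 11 had a log2 fold change above 0, with a median of 0.30 (0.21 without wild-type replicate 1, 0.37 without wild-type replicate 2), and 6 were higher at an unadjusted *P*-value under 0.05. The count was 2 without wild-type replicate 1, 0 without dKO replicate 1 and 1 without both, when the median was 0.14. It was 2 without wild-type replicate 3. *Aspm*, a spindle pole protein and a microcephaly gene (GSMG0000859, chromosome 1 from 139454771 to 139494090), had 307, 307 and 226 normalized counts in the wild-type libraries and 418, 361 and 371 in the dKO libraries. Its genotypes did not overlap and wild-type replicate 3 was the lowest, with a limma log2 fold change of 0.46 ± 0.16 (standard error) and an adjusted p of 0.357. *Kif22*, a kinesin that pushes chromosome arms (GSMG0036679, chromosome 7 from 127027729 to 127042420), had 651, 867 and 722 normalized counts in the wild-type libraries and 996, 869 and 973 in the dKO libraries. Wild-type replicate 2 and dKO replicate 2 were almost level and the rest lay well apart, with a limma log2 fold change of 0.35 ± 0.12 (standard error) and an adjusted p of 0.364. *Kif11*, which slides microtubules to separate the poles (GSMG0019640, chromosome 19 from 37376380 to 37421859), had 895, 1009 and 828 normalized counts in the wild-type libraries and 1229.7, 1076 and 1049 in the dKO libraries. The groups were separate, with dKO replicate 1 highest, and *Kif11* gave a limma log2 fold change of 0.30 ± 0.11 (standard error) and an adjusted p of 0.376.

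*Kif15*, a kinesin that can take over part of the work of KIF11, had 362, 406 and 352 normalized counts in the wild-type libraries and 605, 390.1 and 517 in the dKO libraries. Here dKO replicate 2 was below wild-type replicate 2, and dKO replicates 1 and 3 carried the difference, with a limma log2 fold change of 0.41 ± 0.16 (standard error) and an adjusted p of 0.394. *Tpx2*, which activates Aurora A and nucleates spindle microtubules, had 1546, 2083 and 1778 normalized counts in the wild-type libraries and 2501, 1979.6 and 2105 in the dKO libraries. Wild-type replicate 2 exceeded dKO replicate 2, so the genotypes overlapped, with a limma log2 fold change of 0.29 ± 0.12 (standard error) and an adjusted p of 0.413. *Kif18b*, a kinesin that limits the length of astral microtubules, has a log2 fold change below 0 and had 156, 171 and 159 normalized counts in the wild-type libraries and 182, 112 and 138 in the dKO libraries. Its highest and its lowest value were both from dKO libraries, and *Kif18b* gave a limma log2 fold change of -0.20 ± 0.20 (standard error) and an adjusted p of 0.726.

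Among the others, *Kif4*, *Nusap1*, *Kif2c* and *Hmmr* had log2 fold changes between 0.29 and 0.35. Of these, *Kif4* was higher at an unadjusted *P*-value under 0.05, and only *Hmmr* had genotypes that did not overlap, at 74.2, 69.8 and 75.4 in wild-type and 81.7, 93.1 and 108 in dKO libraries. *Cdk5rap2*, which organizes microtubules at centrosomes, and *Wdr62*, a spindle pole protein, had log2 fold changes of 0.13 and 0.00 with overlapping genotypes. *Aspm* had 0.46, and these differences were not tested. The sign of *Wdr62* is not set by these data, since quantile normalization gave 0.12 and TMM factors gave 0.00. *Kif20b*, a kinesin of late mitosis, was level at 0.04 and turned to -0.12 without both libraries numbered 1.

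The central spindle places the cleavage furrow and the midbody, where the daughter cells part. Of these 7 genes, 6 had a log2 fold change above 0, with a median of 0.32 (0.25 without wild-type replicate 1, 0.35 without wild-type replicate 2), and 4 were higher at an unadjusted *P*-value under 0.05. The count was 3 without wild-type replicate 1, 4 without dKO replicate 1 and 2 without both, when the median was 0.23. *Kif23*, the kinesin of centralspindlin (GSMG0040879, chromosome 9 from 61917280 to 61946799), had 238, 275 and 244 normalized counts in the wild-type libraries and 352, 327 and 359.6 in the dKO libraries. All dKO libraries were well above all wild-type libraries and each group was tight, with a limma log2 fold change of 0.46 ± 0.13 (standard error) and an adjusted p of 0.318. *Racgap1*, its partner in centralspindlin (GSMG0014497, chromosome 15 from 99620492 to 99651656), had 1895, 2163 and 2157 normalized counts in the wild-type libraries and 2713, 2470.0 and 2548 in the dKO libraries. The groups were again separate, with a limma log2 fold change of 0.32 ± 0.09 (standard error) and an adjusted p of 0.292. *Ect2*, the exchange factor that centralspindlin recruits to activate RhoA (GSMG0025248, chromosome 3 from 27097223 to 27153878), had 639, 662 and 646 normalized counts in the wild-type libraries and 878, 729 and 908 in the dKO libraries. The wild-type libraries were almost equal and every dKO library was higher, with a limma log2 fold change of 0.36 ± 0.11 (standard error) and an adjusted p of 0.335.

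*Kif20a*, the kinesin that brings the passenger complex to the central spindle, had 496, 655 and 577 normalized counts in the wild-type libraries and 719.7, 661 and 789.9 in the dKO libraries. Wild-type replicate 2 lay just below dKO replicate 2 and the groups did not overlap, with a limma log2 fold change of 0.33 ± 0.13 (standard error) and an adjusted p of 0.388. *Prc1*, which bundles microtubules of the central spindle, and *Anln*, which links actin and septins in the furrow, overlapped between the genotypes, with log2 fold changes of 0.26 and 0.27. *Cit*, the citron kinase of the midbody and a microcephaly gene that neurons also transcribe, had 212, 176 and 282 normalized counts in the wild-type libraries and 240.5, 197 and 174 in the dKO libraries. The genotypes overlapped widely and wild-type replicate 3 was the highest, with a limma log2 fold change of -0.12 ± 0.20 (standard error) and an adjusted p of 0.842. The log2 fold change of *Cit* was 0.06 without that library.

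Mitotic chromosomes are folded by condensin, untangled by topoisomerase II and kept apart by Ki-67 at their surface. All 7 genes of this group had a log2 fold change above 0, with a median of 0.30 (0.18 without dKO replicate 1, 0.33 without dKO replicate 2), and 3 were higher at an unadjusted *P*-value under 0.05. The count was 3 without wild-type replicate 1, 1 without dKO replicate 1 and 1 without both, when the median was 0.31. It was 1 without wild-type replicate 3 and 2 without wild-type replicate 2, and 5 with the length trend removed or with the replicate block. Of the features tested, 6.45% were higher with the length trend removed and 6.37% with the replicate block. *Smc2*, a core subunit of condensin (GSMG0026557, chromosome 4 from 52439221 to 52488365), had 238, 190.1 and 243 normalized counts in the wild-type libraries and 330.3, 282 and 312 in the dKO libraries. The dKO libraries all lay above the wild-type libraries, where replicate 2 was the lowest and not replicate 1, with a limma log2 fold change of 0.47 ± 0.15 (standard error) and an adjusted p of 0.346. *Ncapd2*, a subunit of condensin I (GSMG0033679, chromosome 6 from 125168009 to 125191616), had 4947, 5193 and 4732 normalized counts in the wild-type libraries and 6684, 5337 and 5838 in the dKO libraries. dKO replicate 1 was far above the rest, dKO replicate 2 only just above wild-type replicate 2, and the genotypes did not overlap, with a limma log2 fold change of 0.26 ± 0.09 (standard error) and an adjusted p of 0.369. *Ncaph*, which closes the condensin I ring, had 373, 359 and 369 normalized counts in the wild-type libraries and 450.1, 413 and 493 in the dKO libraries. Its wild-type libraries were almost equal and below all dKO libraries, with a limma log2 fold change of 0.30 ± 0.12 (standard error) and an adjusted p of 0.396.

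*Mki67*, the gene of the proliferation marker Ki-67 (GSMG0036802, chromosome 7 from 135689784 to 135716418), had 660.1, 542 and 453 normalized counts in the wild-type libraries and 848, 619 and 619 in the dKO libraries. Wild-type replicate 1 was above dKO replicates 2 and 3, so that the genotypes overlapped, with a limma log2 fold change of 0.33 ± 0.17 (standard error) and an adjusted p of 0.474. *Top2a*, which encodes topoisomerase II alpha (GSMG0007337, chromosome 11 from 98937373 to 99024189), had 1211, 1039 and 1196 normalized counts in the wild-type libraries and 1675, 1240.2 and 1219 in the dKO libraries. All dKO libraries lay above all wild-type libraries, but dKO replicates 2 and 3 by very little, with a limma log2 fold change of 0.25 ± 0.13 (standard error) and an adjusted p of 0.488. The condensin genes *Ncapg* and *Smc4* overlapped between the genotypes, with log2 fold changes of 0.31 and 0.19. Subunits of a complex that is built in fixed proportions thus differed in their values, from 0.19 for *Smc4* to 0.47 for its partner *Smc2*, a difference that was not tested.

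**Figure D2:**
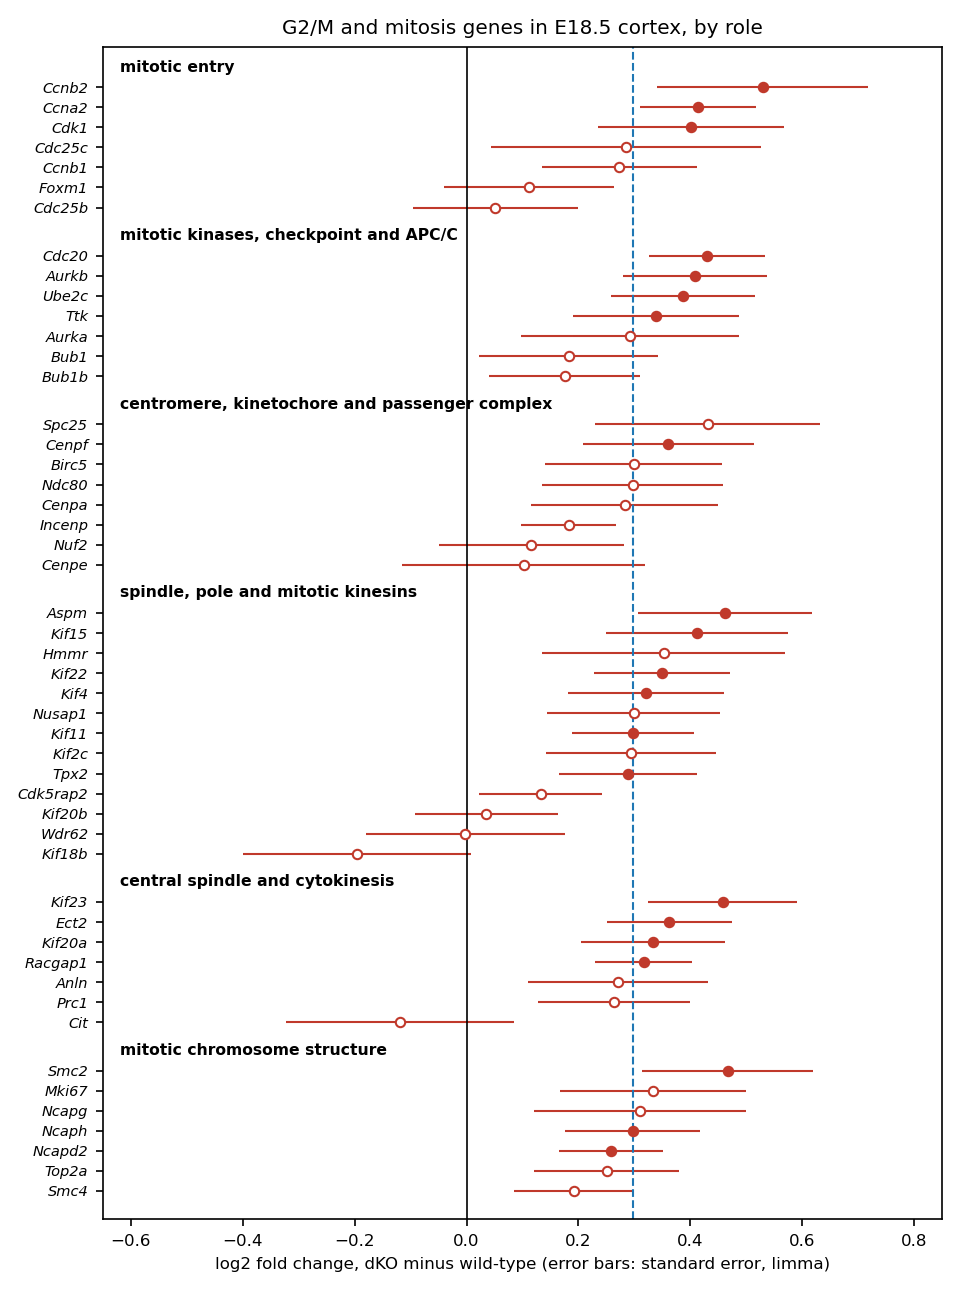
Log2 fold change of each of the 49 members (dKO minus wild-type, from limma, bars of 1 standard error), grouped by role and ordered by size within each role. Filled points have an unadjusted *P*-value under 0.05, the dashed line is the median of the members at 0.30, and *Kif18b*, *Cit* and *Wdr62* are the members that are not above 0.

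The members also differed in level, compared here as the mean over the 6 libraries per kilobase of annotated exon. *Ncapd2* had the highest value at 1178 normalized counts per kb, followed by *Racgap1* at 758, *Cdc20* at 659.9 and *Ube2c* at 657. *Cenpe* had the lowest at 15.9, below *Hmmr* at 21.5 and *Cit* at 22.3. Among the cyclins, *Ccna2* had 364 per kb, *Ccnb2* 235 and *Ccnb1* 209. *Mki67*, with its long transcript, had 62.0 per kb, lower than *Top2a* at 242. The member with the fewest reads had at least 65 in each library.

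Reads of some members may belong to neighbours, because the sources used here do not give the strand setting of the counting. Exons of 11 of the 49 members overlap those of another gene in the annotation, 10 of them on the opposite strand. The shared part is over 10% of the exon bases in 6 members, among them *Kif20a*, which shares 31.8% with *Cdc23*, and *Ube2c*, which shares 22.8% with the muscle gene *Tnnc2*. Pseudogenes named after *Ccnb1*, *Ccnb2*, *Kif22* and *Kif4* are annotated, so that the counts of these members are uncertain to the extent that reads were shared with them.

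The promoters of many mitotic genes share short elements that are known for timing transcription to G2 and mitosis. These elements are described here for the members. The cell cycle genes homology region (CHR) is bound by the DREAM repressor complex in resting cells and by B-MYB and FOXM1 with MuvB in dividing cells, and the CCAAT box upstream of it binds NF-Y. RefSeq promoter windows (build GRCm38.p6, 250 bases before to 50 after the start of transcription) were matched by symbol for 41 of the 49 members, with 44 windows. They were searched on both strands for the CHR as TTTGAA or TTCGAA, of which the latter is its own reverse complement, and for the CCAAT box as CCAAT, and neither motif contains the other. The CHR was present in 35 of the 44 windows, where 19.2% of all 32851 promoter windows hold it, and the CCAAT box in 33, where 37.4% hold it. From 50 bases before to 50 after the start, 32 of the member windows hold a CHR, against 5.31% of all. Of the members higher at an unadjusted *P*-value under 0.05, 17 were matched with 18 windows, of which 17 hold a CHR and 16 a CCAAT box. The other members had 26 windows, 18 with a CHR and 17 with a CCAAT box. Near the start, from 50 bases before to 50 after, 43.8% of the windows of other G2/M and mitosis genes hold a CHR and 6.82% of those of G1/S genes. Among the members, *Ccnb1*, *Cenpe* and *Wdr62* have a CCAAT box and no CHR in their windows. A match is a description of letters and not a measured binding site, and no difference between groups of windows was tested here or below.

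Of the members higher at an unadjusted *P*-value under 0.05, 5 hold both motifs within the 100 bases before the start, in 5 of their 18 windows. Of all promoter windows 1.14% do so, as do 2 of the 26 windows of the other members, 18.8% of the windows of other G2/M and mitosis genes and 0 of those of G1/S genes. Their last 120 bases before the start are given 5′ to 3′ on the strand of the gene, with CHR and CCAAT letters of either strand in capitals, to show how close the elements lie to each other and to the start at the right end. They are *Cdk1* (chr10:69352913-69353032, minus strand), *Cdc20* (chr4:118437344-118437463, minus strand), *Ube2c* (chr2:164769809-164769928, plus strand), *Kif11* (chr19:37376262-37376381, plus strand) and *Kif22* (chr7:127042421-127042540, minus strand), from RefSeq on GRCm38.p6, and this choice was made after the values were seen.
Cdk1: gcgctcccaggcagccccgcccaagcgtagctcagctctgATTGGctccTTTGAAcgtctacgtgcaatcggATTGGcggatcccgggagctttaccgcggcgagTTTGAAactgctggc
Cdc20: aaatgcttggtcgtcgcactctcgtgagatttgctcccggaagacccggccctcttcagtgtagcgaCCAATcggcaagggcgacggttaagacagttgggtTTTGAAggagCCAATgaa
Ube2c: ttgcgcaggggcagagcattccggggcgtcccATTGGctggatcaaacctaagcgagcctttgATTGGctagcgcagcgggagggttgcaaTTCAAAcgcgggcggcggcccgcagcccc
Kif11: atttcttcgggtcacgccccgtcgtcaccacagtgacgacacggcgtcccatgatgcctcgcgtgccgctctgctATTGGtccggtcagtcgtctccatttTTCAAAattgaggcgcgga
Kif22: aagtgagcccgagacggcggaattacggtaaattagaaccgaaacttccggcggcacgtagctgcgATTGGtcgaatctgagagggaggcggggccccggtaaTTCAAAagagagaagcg
In *Cdk1* a CHR starts 15 bases before the start of transcription and another 71 bases before it, with CCAAT letters in reverse orientation 48 and 80 bases before. In *Cdc20* the CHR lies 18 bases before the start, with CCAAT boxes at 53 and 8 bases, on either side of it. *Ube2c*, *Kif11* and *Kif22* carry the CHR in reverse orientation 29, 19 and 17 bases before the start. *Ube2c* and *Cdk1* each show 2 CCAAT boxes upstream of the CHR nearest to the start, while *Kif11* and *Kif22* show 1.

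Further genes of the program lay on the same side of 0 as the members, and the shares of each list below stand against the 4.92% of all features that were higher and the 6.58% that were lower at an unadjusted *P*-value under 0.05. Both shares are from limma with all libraries, and the share of all features lower in other fits is not given here. Of 67 other G2/M and mitosis genes, 58 had a log2 fold change above 0, with a median of 0.22 (0.15 without wild-type replicate 1, 0.29 without wild-type replicate 2), and 15 (22.4%) were higher and 0 lower at an unadjusted *P*-value under 0.05. The 15 became 8 without dKO replicate 3 and 7 without both libraries numbered 1, when the median was 0.14, and 1 was lower without the trend and robust options. *Lmnb1*, the lamin of the nuclear envelope that mitosis takes apart, had the most normalized counts of them, at 10289, 11314 and 9388 in wild-type and 13006, 11357 and 12308 in dKO libraries. *Iqgap3*, a scaffold protein of proliferating cells, had the smallest *P*-value, at 222, 226 and 227 in wild-type and 367, 280.3 and 389 in dKO libraries, and both genes were separate between the genotypes. Of the 48 genes of G1/S and DNA replication, 43 lay above 0, with a median of 0.18 (0.12 without wild-type replicate 1, 0.26 without wild-type replicate 2), and 11 (22.9%) were higher and 0 lower, or 1 lower without wild-type replicate 2. The 11 became 5 without wild-type replicate 1, 7 without wild-type replicate 3 and 6 without dKO replicate 3. They were 5 without the trend and robust options and 5 without both libraries numbered 1, when the median was 0.12. *Cdk4*, a kinase of the G1 phase, had the most counts, with overlapping genotypes at 6350.4, 8848 and 7570.3 in wild-type and 8422, 8574 and 9529 in dKO libraries, and *Uhrf1*, which copies DNA methylation at replication, had the smallest *P*-value, at 1018, 1090.2 and 1183 in wild-type and 1411, 1288 and 1479 in dKO libraries with no overlap. The median of the mitotic members lay above those of both lists, a difference that was not tested.

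Regulators that act on the CHR and on E2F sites were also listed. Of 24 genes of DREAM, MuvB, E2F and MYB proteins, 2 (8.33%) were higher and 0 lower at an unadjusted *P*-value under 0.05, at a median log2 fold change of 0.13 (0.10 without wild-type replicate 1, 0.18 without wild-type replicate 2), and the count was 2 without wild-type replicate 2 and 1 without any other library or without both numbered 1. It was 4 with quantile normalization and 4 without the trend and robust options. The median of this list was 0.07 without both libraries numbered 1. *Rbbp4*, a histone-binding subunit of MuvB, had the most counts, with overlapping values of 10556, 11973 and 11439 in wild-type and 12390.2, 11856 and 13206 in dKO libraries, and *E2f8*, an E2F repressor, had the smallest *P*-value, at 302, 333 and 380.5 in wild-type and 429, 429 and 421 in dKO libraries. Genes that hold or take cells out of the cycle were mixed. Of 16 CDK inhibitor and exit genes tested, 4 (25.0%) were higher and 1 (6.25%) lower, with a median of -0.05 (-0.07 without wild-type replicate 1, 0.01 without dKO replicate 3). The medians in parentheses are over 17 genes and so not over the same genes. The 4 became 2 without any one of wild-type replicates 1 and 3 and dKO replicates 2 and 3. Without the trend and robust options 2 were higher and 0 lower. Those higher were *Btg2*, *Cdkn1b*, *Gadd45g* and *Ccng2*, and the lower was *Cdkn1a* at -0.46, which was not called without wild-type replicate 3 or dKO replicate 1, while 2 were lower without dKO replicate 2. *Cdkn1b*, the inhibitor p27, had the most counts, at 9031, 9265 and 8607 in wild-type and 11102, 10152 and 10409 in dKO libraries, and *Btg2*, which marks progenitors in their neurogenic division, had the smallest *P*-value, at 739.9, 879.7 and 979 in wild-type and 1212, 1237 and 1176 in dKO libraries, both without overlap. No gene of these lists passed the adjusted threshold by limma or edgeR, and by DESeq2 *Btg2* did (adjusted p = 0.0241).

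Markers of intermediate progenitors and radial glia were counted in the same way, and differences between these lists were not tested. All 8 intermediate progenitor genes had a log2 fold change above 0, with a median of 0.66 (0.40 without dKO replicate 1, 0.84 without dKO replicate 2), and 6 (75.0%) were higher at an unadjusted *P*-value under 0.05, or 3 without dKO replicate 1 and 3 without both libraries numbered 1. Their median was 0.33 without both libraries numbered 1 and 0.49 over those with a mean of at least 50. Their summed normalized counts were 8131, 11235 and 8959 in the wild-type libraries and 15305, 11596 and 13103 in the dKO libraries. Wild-type replicate 1 was lowest, dKO replicate 1 highest and the replicates numbered 2 next to each other, the order seen in the mitotic members. *Insm1*, a transcription factor of these cells and their most abundant gene here, had 5144, 6426 and 5137 normalized counts in the wild-type libraries and 9123, 6795 and 7498 in the dKO libraries. *Mfap4* had the smallest *P*-value, with 207, 369 and 261 normalized counts in the wild-type libraries and 528, 457 and 563 in the dKO libraries. No intermediate progenitor gene passed the adjusted threshold by limma, and by DESeq2 *Insm1* (adjusted p = 0.0241) and *Mfap4* (adjusted p = 0.00345) did. Both genes were separate between the genotypes, none of the 8 was at 0, and the part of these cells in the result for the mitotic genes was not tested. By immunofluorescence, the study reported fewer cells with TBR2, its marker of transient-amplifying progenitors, in dKO than in wild-type cortex at this age. It also reported fewer cells with the stemness marker SOX2. Counts of stained cells are a measure unlike mRNA of whole cortex, and they were not compared with it here. Of 12 radial glia genes, 5 lay above 0, or 7 without wild-type replicate 1 and 9 without dKO replicate 3, with a median of -0.04 (-0.15 without wild-type replicate 2, 0.14 without dKO replicate 3), and 2 (16.7%) were higher and 0 lower, with 0 higher without wild-type replicate 1 or dKO replicate 3 and 1 without wild-type replicate 2 or without either other dKO library. Without wild-type replicate 2 or dKO replicate 2, 2 radial glia genes were lower, as by DESeq2 with all libraries, and by edgeR 1 was. Quantile normalization and limma without the trend and robust options gave 1 higher, and leaving out both libraries numbered 1 gave 0. Their sums overlapped, at 60198, 51300.4 and 65894 in the wild-type libraries and 60503, 66479 and 52542 in the dKO libraries. Their most abundant gene was *Fabp7*, a fatty acid binding protein, at 14574, 13829 and 18200.3 in wild-type and 12529, 18590.1 and 12421 in dKO libraries, and *Pax6*, a transcription factor of radial glia, had the smallest *P*-value, at 791, 840.0 and 909 in wild-type and 1034, 952 and 1102 in dKO libraries with no overlap.

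Markers of further cell types were counted in the same way, and limma and edgeR called 0 genes of the next 3 lists at an adjusted *P*-value under 0.05. Of 12 genes of cortical projection neurons, 7 (58.3%) were higher and 0 lower, at a median log2 fold change of 0.22 (0.16 without dKO replicate 3, 0.31 without dKO replicate 2), and the 7 became 2 without dKO replicate 1, 3 without wild-type replicate 3 or dKO replicate 3 and 4 without wild-type replicate 1 or 2. It was 2 with quantile normalization, at a median of 0.14, 1 without the trend and robust options of limma and 4 without both libraries numbered 1. Their sums were 356494, 363928 and 334975 in the wild-type libraries and 400852, 369706 and 416587 in the dKO libraries, with *Tubb3*, a tubulin of neurons, as the most abundant gene, at 148988, 137245 and 143717 in wild-type and 159016, 161506 and 166759 in dKO libraries. *Emx1*, a cortical transcription factor, had the smallest *P*-value of them, at 1127, 1329 and 1125 in wild-type and 1706, 1734 and 1739.8 in dKO libraries, and DESeq2 gave it an adjusted p of 0.000515. All 5 oligodendrocyte precursor genes lay below 0, with a median of -0.67 (-0.92 without wild-type replicate 2, -0.40 without dKO replicate 3) and 3 (60.0%) lower at an unadjusted *P*-value under 0.05, or 1 without wild-type replicate 1, 5 without wild-type replicate 2, 5 by DESeq2, 1 without the trend and robust options and 0 without both libraries numbered 1. Their sums were 11942, 6865 and 8926 in the wild-type libraries and 6006, 6466 and 3804 in the dKO libraries, and *Olig1*, their most abundant gene, had 7228, 4143 and 5243 in wild-type and 3403, 3696 and 2187 in dKO libraries. DESeq2 called 1 gene of this list, *Pdgfra* (adjusted p = 0.0475). All 7 endothelial genes lay below 0, with a median of -0.19 (-0.27 without wild-type replicate 2, -0.12 without wild-type replicate 3) and 2 (28.6%) lower, or 1 without wild-type replicate 3 or dKO replicate 3 and 3 without wild-type replicate 2 or dKO replicate 1. With the options of limma off, 1 was lower, and 1 was without both libraries numbered 1. Their sums were 6049.8, 5161 and 6547 in the wild-type libraries and 5142, 5541 and 4854 in the dKO libraries, overlapping between the genotypes, with *Cldn5* most abundant at 2762, 2423 and 2943 in wild-type and 2436, 2947 and 2586 in dKO libraries. *Flt1* had the smallest *P*-value, at 729, 504 and 857 in wild-type and 388, 507 and 326 in dKO libraries, and DESeq2 gave it an adjusted p of 0.0241. The part of these cell types in the result for the mitotic genes was not tested.

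The rest of the markers gave few or no calls. Ganglionic eminence and interneuron genes had a median of 0.04 (-0.21 without wild-type replicate 2, 0.18 without dKO replicate 1), with 0 higher and 1 (7.69%) lower of 13. *Dlx1* was their most abundant gene, at 4079, 3899 and 5189 in wild-type and 3379, 4866 and 3853 in dKO libraries, and *Sp8* the lower one, at 688, 480.1 and 503 in wild-type and 387, 437 and 379 in dKO libraries. Without wild-type replicate 1, or without both libraries numbered 1, no gene of this list was lower, without dKO replicate 2 there were 2, and without wild-type replicate 3 there was 1 higher. Microglia genes had a median of -0.01 (-0.18 without dKO replicate 3, 0.15 without wild-type replicate 3) over 7 genes, erythroid genes 0.20 (0.02 without dKO replicate 3, 0.33 without wild-type replicate 3) over 5, choroid plexus genes -0.60 over 3 and meningeal genes -0.72 (-1.23 without wild-type replicate 2, -0.41 without wild-type replicate 3) over 6. The choroid plexus median was -1.01 without dKO replicate 2 and -0.10 without dKO replicate 1. Without wild-type replicate 3 only 2 of its genes were tested, at a median of 0.53, so that value is not over the same genes. By limma, *Dcn*, a proteoglycan of the meninges, was the only one of these, and the only 1 of 6 meningeal genes (16.7%), with an unadjusted *P*-value under 0.05, at 29.5, 25.8 and 138 in wild-type and 9.08, 16.7 and 22.0 in dKO libraries, and not without wild-type replicate 3, without dKO replicate 1 or without the trend and robust options. By edgeR 4 and by DESeq2 4 meningeal genes were lower at that threshold, counts that have no share of all features by these tools beside them. Without wild-type replicate 2, 4 meningeal and 2 microglia genes were lower, and without dKO replicate 1, 1 microglia gene was higher, as also with quantile normalization and without both libraries numbered 1. The most abundant genes were *Csf1r* in microglia, at 822, 579 and 787 in wild-type and 619.8, 616 and 701 in dKO libraries, *Hba-a1* in erythroid cells, at 21947, 20303 and 26401 in wild-type and 21947, 22966 and 28042 in dKO libraries, and *Col1a2* in meninges, at 342, 146 and 513 in wild-type and 164, 187 and 146 in dKO libraries. *Aqp1* of the choroid plexus had 17.1, 12.9 and 29.8 in wild-type and 5.45, 22.0 and 13.9 in dKO libraries. *Aif1* had the smallest *P*-value in microglia, at 26.6, 35.4 and 37.7 in wild-type and 31.8, 60.7 and 69.6 in dKO libraries. Summed choroid plexus counts were 39.0, 38.7 and 142 in the wild-type libraries and 32.7, 84.7 and 47.6 in the dKO libraries, near the bottom of the range tested.

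**Figure D3:**
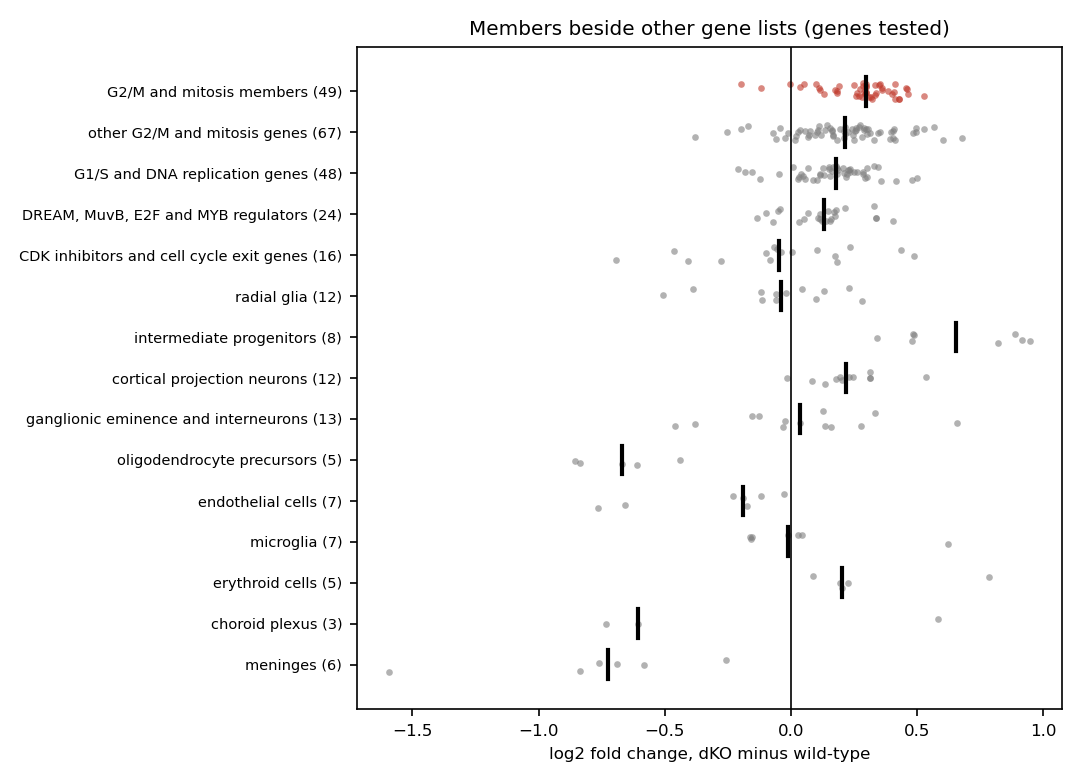
Log2 fold change (dKO minus wild-type, from limma) of each gene tested in the 49 members and in 14 other lists, with the median of each list as a black bar and the number of genes tested in parentheses. With all libraries the members have a median of 0.30 and intermediate progenitor genes 0.66, while oligodendrocyte precursor genes lie at -0.67.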

How the data were processed

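The submitters' notes name TruSeq Stranded mRNA libraries, alignment to mm10 with STAR 2.7.5a, and FAST DB as annotation. The deposited values are what the authors call signal: reads over a DESeq2 size factor. Positive values were whole multiples of a smallest step per library (within 0.01 of a read), which gave back reads, 37301024, 32966884 and 39654253 per wild-type and 40896541, 34808551 and 31837922 per dKO library. Genotypes as labelled were compared by limma 3.58.1 in R 4.3.3, with its trend and robust settings, on log2(normalized count + 1). Features needed a mean of 10 or more, and Benjamini-Hochberg adjustment covered all 18970. Other settings were pseudocounts of 0.1 and 10, minimum means of 1 and 50, quantile normalization, TMM factors, limma without both settings, edgeR 4.0.16 and DESeq2 1.42.0 on these reads, a block for replicate number, and leaving out each library in turn. The code was tried on simulated counts. The members, roles and lists were chosen with earlier results of these data known. Values per library are given, in each role, for the member with the most counts, those with the largest log2 fold change above 0 and the largest below 0, if any, and up to 4 with the smallest unadjusted *P*-values under 0.05, and for *Mki67*, *Top2a*, *Cdk1*, *Ccnb1* and *Aspm*. In other lists they are given for the genes with the most counts and the smallest *P*-value, of which 1 is not reported here. *Aurka*, *Foxm1* and *Hmmr* were added after their values were seen. Exon lengths and overlaps came from GENCODE M21 and promoters from RefSeq (Python 3.11.15, pandas 2.3.3, matplotlib 3.10.9).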

Additional observations from a re-analysis of the deposited data

How the results depend on the processing

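The median log2 fold change of the members stayed positive, from 0.22 to 0.37 over all alternatives, and 0 members were lower at an unadjusted *P*-value under 0.05 in each. The 21 members higher became 13 without the trend and robust options (of all features 3.52%, against 4.92%) and 7 without both libraries numbered 1, and lay between 12 and 25 when 1 library was left out. Members called at an adjusted *P*-value under 0.05 went from 0 to 1 with DESeq2. Over all features the 19 calls became 7 without the options, 202 with DESeq2 and 5 without both libraries numbered 1, and lay between 7 and 46 when 1 library was left out. They were 12 with the length trend removed, a setting that also tested only the 13978 features with an annotated exon length. With the replicate block they were 9 and the members higher were 24, of which 19 among the 21 (of all features 6.37%). Same-numbered libraries correlated in their deviations at 0.10, -0.23 and -0.08. The labels do not say whether the numbers pair the samples, and correlations across genes that are not independent cannot decide it. Members below 0, 3 in the main comparison, were 9 without both libraries numbered 1 and between 2 and 5 when 1 library was left out. Leaving out both libraries numbered 1 and removing the length trend were chosen after seeing the data. Log2 fold changes changed sign without both libraries numbered 1 in *Cdc25b* (-0.00261), *Cdc25c* (-0.00408), *Foxm1* (-0.0448), *Bub1* (-0.0879), *Bub1b* (-0.0116), *Nuf2* (-0.17), *Kif20b* (-0.12), *Wdr62* (0.14) and *Cldn5* (0.0480). With each library left out they ranged across 0 in *Cdc25b* (-0.0829 to 0.22), *Foxm1* (-0.0318 to 0.22), *Cenpe* (-0.0717 to 0.27), *Nuf2* (-0.0581 to 0.21), *Kif20b* (-0.0623 to 0.11), *Wdr62* (-0.11 to 0.10), *Cit* (-0.28 to 0.0623), *Fabp7* (-0.31 to 0.00529), *Cldn5* (-0.11 to 0.0335) and *Hba-a1* (-0.0187 to 0.20). *Wdr62* was 0.12 with quantile normalization, 0.000653 with TMM factors and 0.000696 with the length trend removed, where *Hba-a1* was -0.0417. The cause was not tested for any of these. A mean of at least 50 leaves no choroid plexus gene to test.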
